A study of Mus musculus with 2 samples.

Results

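The autophagy machinery was examined as a list of 37 genes that carry out autophagy, chosen by gene symbol for their role in it, by a rule that uses no measured value but was written with earlier results of these data known. All 37 were found among the 22886 genes of the deposited tables, each on a row of its own. The tables hold 2 RNA sequencing libraries of polyadenylated RNA, 1 per condition, from cells that the labels call aerobic tumor cells and that were sorted by flow cytometry from subcutaneous tumors of Lewis lung carcinoma (LLC), a mouse lung tumor line. The mice were wild type C57BL/6 mice injected with vehicle or with clodronate, an agent used in liposomes to deplete macrophages, and each library is named here by its injection. The gate of the sort, the dose and time of the injection, the age of the mice and the number of mice behind each library are not given in the sources used here. A growth protocol in the same labels names EML cells, a blood progenitor line, and conflicts with the tumor labels.

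Autophagy is the process by which a cell wraps part of its cytoplasm in a double membrane, the autophagosome, and delivers it to the lysosome for breakdown. A kinase complex built on ULK starts the process, a lipid kinase complex marks the membrane, ATG9, ATG2, WIPI and VMP1 proteins feed and shape it, and a pair of ubiquitin-like conjugation systems attach LC3 and GABARAP proteins to it, where cargo receptors dock. In macrophages the same proteins are known for the clearance of bacteria, damaged mitochondria and ingested material, and part of the conjugation machinery also acts on single-membrane phagosomes.

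The values were RPKM, reads scaled by the length of the transcript and the size of the library, so that levels of different genes can be set beside each other. Most low values lay on whole multiples of a fixed step once they were multiplied by the length of the transcript. Among genes with 1 to 6 implied reads, 74.9% of 550 in the vehicle library and 75.4% of 1051 in the clodronate library lay within 0.1 of a whole read. The step puts the depth at about 13600000 reads for the vehicle library and 11200000 reads for the clodronate library, and these figures are estimates because transcript lengths of another genome build were used. With 1 library per condition no difference has a replicate check, so no p-value is given, and the 95% exact binomial intervals printed with ratios cover counting error only. Of the cell type markers, all 12 macrophage genes were kept. They ran from 22.5 to 10534 RPKM in the vehicle library and from 42.3 to 11189 RPKM in the clodronate library. Of these, 7 were higher and 5 lower in the clodronate library, with a sum of 28478 against 26232 RPKM. C1qc had 3984 and 2043 RPKM and Ctss 2357 and 1420 RPKM, while Lyz2 had 10534 and 11189 RPKM and C1qa 1185 and 1563 RPKM. Among the 8 epithelial genes, 4 had no signal with either injection, Epcam being one of them, and none exceeded 6.44 RPKM. The 6 blood progenitor genes had sums of 6.81 and 4.93 RPKM, with Gata1 and Mpo at 0 in both libraries and none above 2.60 RPKM. Which of the conflicting labels holds was not tested. Genes of cycling cells were higher in the clodronate library in 8 of 8 cases, beside 51.6% of all genes kept, with a sum of 57.0 against 153 RPKM. Genes of fibroblasts were lower in 7 of the 8 kept, beside 48.4% of all genes kept, with a sum of 160 against 76.9 RPKM. Most of that sum was Dcn, at 77.3 and 28.4 RPKM, and Col3a1, at 62.1 and 34.4 RPKM. Col1a1 was higher, at 2.32 and 5.40 RPKM, and Col1a2 was nearly level, at 2.01 and 1.94 RPKM. The sums of the T and NK cell genes were 3.23 and 13.7 RPKM, with Cd3e, Cd3g and Ncr1 at 0 in both libraries. Those of dendritic cell genes were 6.24 and 12.9 RPKM and those of neutrophil genes 46.1 and 46.0 RPKM. Within the neutrophil sum S100a8 was higher, at 12.7 and 23.1 RPKM, and Csf3r, Cxcr2 and Mmp8 were lower. Csf3r had 26.4 and 19.3 RPKM and Mmp8 had 2.999 and 0.909 RPKM. S100a9, Retnlg and Camp were at 0 in both libraries. Most of the difference in the T and NK cell sum was Cd2, at 2.39 and 11.1 RPKM, while Cd3d was lower. Nkg7, Gzmb and Klrb1c were at 0 with vehicle and at 1.02, 0.586 and 0.918 RPKM with clodronate. In the dendritic cell sum most of the difference was Cd209a, at 1.25 and 8.68 RPKM. The part of these cells in the results on autophagy genes was not tested, and in sorted bulk cells fewer cells of a type and less RNA per cell cannot be told apart.

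All 37 autophagy genes were detected in both libraries and all had a mean of at least 1 RPKM, the level at which genes were kept. Their median level was 14.1 RPKM in the vehicle library and 15.1 RPKM in the clodronate library, against 11.1 and 11.3 RPKM for the 10982 genes kept. Gabarap and Sqstm1 exceeded 100 RPKM in both libraries, 22 genes had at least 10 RPKM in both, and Atg10 had the lowest level in the vehicle library. The order of the levels was much alike in both libraries, with a Spearman rho of 0.89 across the 37 genes and 0.90 across all genes kept, both given as descriptions.

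**Figure D1:**
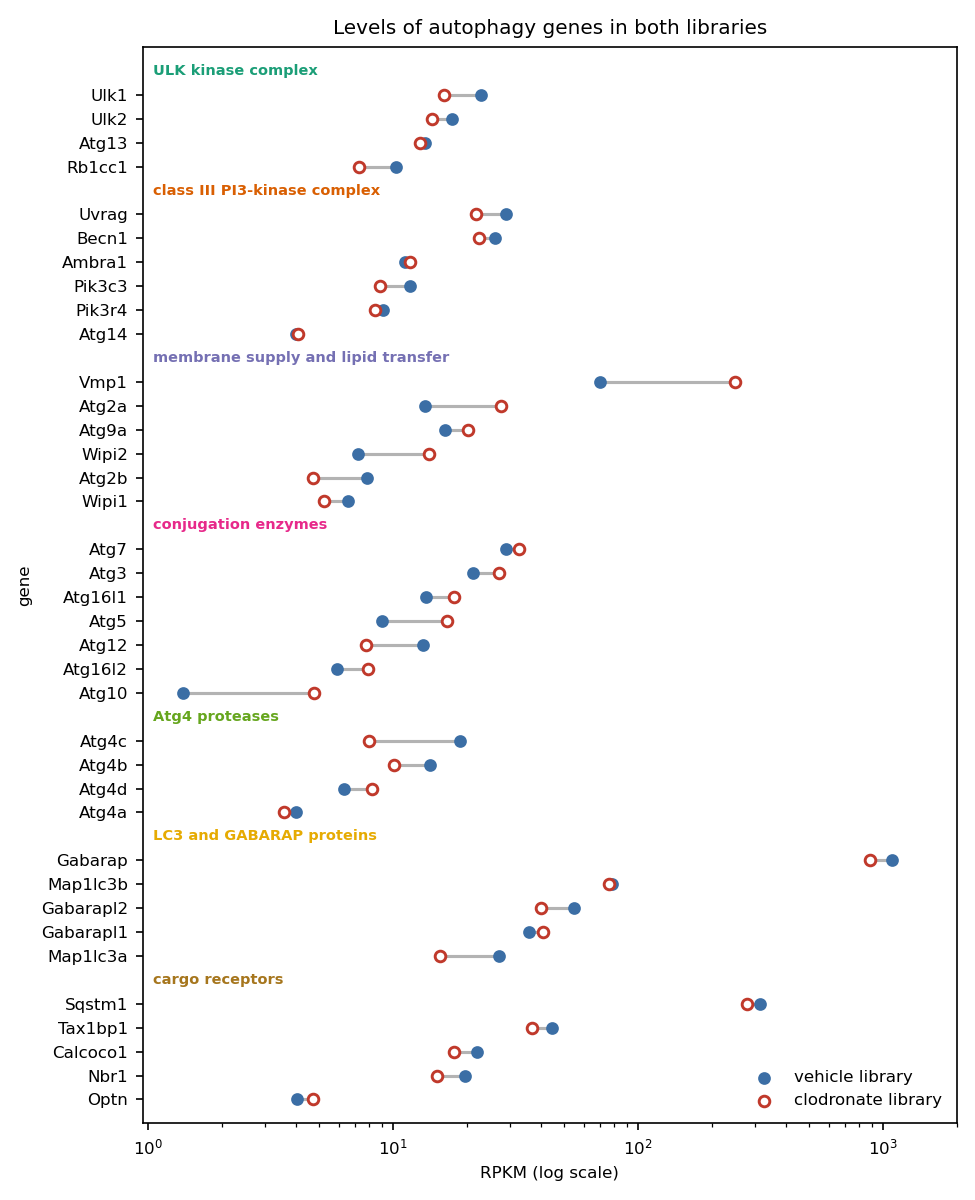
Level of each of the 37 autophagy genes in RPKM on a log axis, with the vehicle library as a filled blue point and the clodronate library as an open red point, 1 library per condition, grouped by role. Gabarap lies highest at 1087 and 884 RPKM, and Vmp1 has the longest line to the right, from 69.7 to 248 RPKM.

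Differences between the libraries were expressed as a log2 ratio, clodronate over vehicle, after 1 was added to each RPKM, a scale that understates changes of low genes. On this scale 3 of the 37 genes, or 8.11%, differed at least 2-fold, against 13.7% of all genes kept. Vmp1 and Atg10 were higher in the clodronate library, where 6.95% of all genes passed, and Atg4c was lower, where 6.77% passed. At 1.5-fold 9 of the 37 genes passed, or 24.3%, against 32.9% of all genes, with 5 higher beside 16.6% of all genes and 4 lower beside 16.3%. At 3-fold Vmp1 alone passed on this scale, against 5.18% of all genes, of which 2.86% were higher and 2.32% lower, while the ratio of Atg10 without a pseudocount was 3.40. The share of autophagy genes that differed was thus no larger than that of genes in general.

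The remaining 28 genes lay within 1.5-fold, 17 of them within 1.25-fold. The median log2 ratio of the 37 genes was -0.13, with 15 higher and 22 lower in the clodronate library, beside a median of 0.019 over all genes kept, of which 48.4% were lower. The counting interval of the ratio left out 1 for 29 of the 37 genes, which is near the 75% of all genes with an interval. The spread between mice or preparations was not measured.

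**Figure D2:**
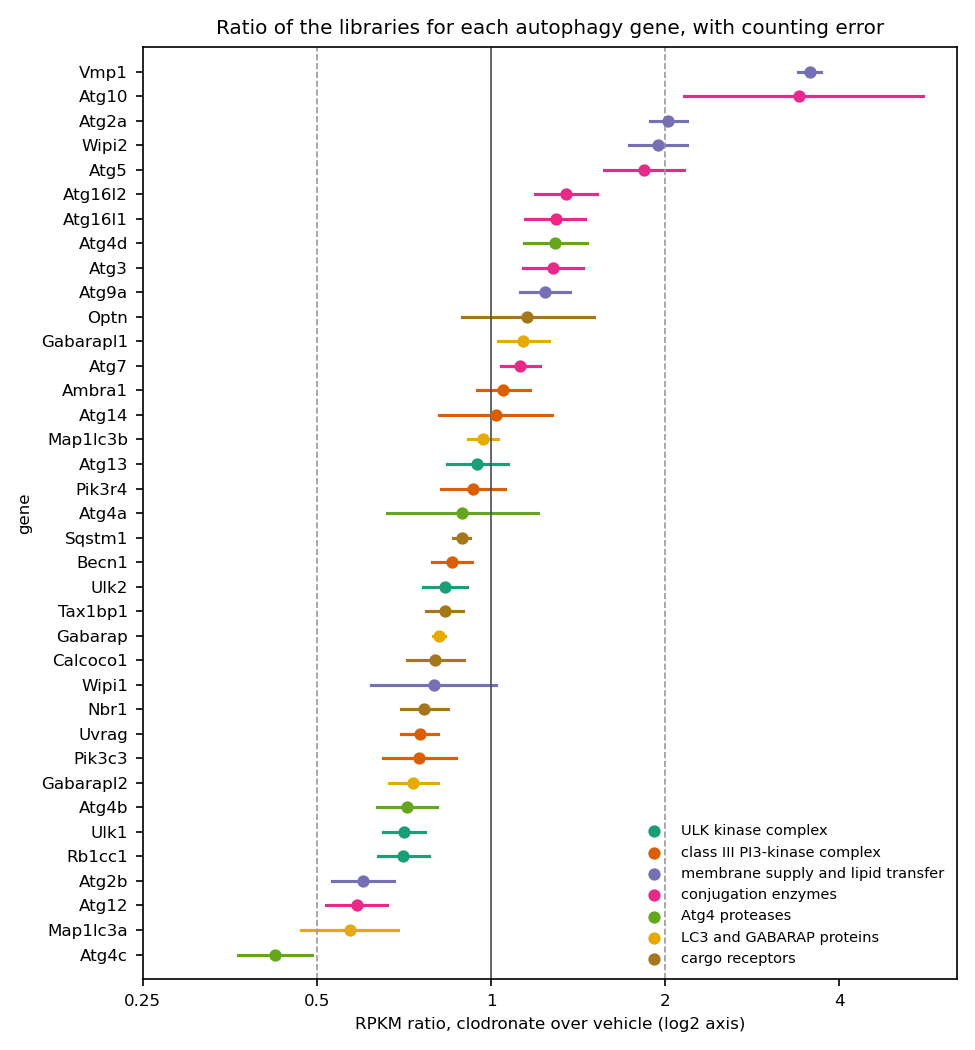
Ratio of clodronate over vehicle RPKM for each gene on a log2 axis, without a pseudocount, with the 95% exact binomial interval from estimated reads as a bar (counting error only) and dashed lines at 2-fold. Vmp1 and Atg10 stand to the right with ratios of 3.55 and 3.40, Atg2a lies just past the dashed line at 2.03, Atg4c stands at the left end with 0.424, and 28 of the genes lie within 1.5-fold on the scale with a pseudocount.

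The 4 listed genes of the ULK kinase complex, which receives the signals of starvation, were lower in the clodronate library, beside 48.4% of all genes kept. All 4 differed by less than 1.5-fold before a correction for GC content and length. Atg101, a further part of the complex described with the other genes of the pathway, was 3.28-fold lower without a pseudocount. Ulk1, the kinase itself, had 22.9 RPKM with vehicle and 16.2 RPKM with clodronate, a log2 ratio of -0.47 that came to -0.76 once GC content and length were corrected for. Its paralog Ulk2 had 17.3 and 14.5 RPKM. Rb1cc1, the scaffold also called FIP200, had 10.3 and 7.24 RPKM. The adaptor Atg13 stayed closest, with 13.5 and 12.8 RPKM, and its interval of the ratio, from 0.839 to 1.07, held 1. The median log2 ratio of these 4 genes was -0.35.

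The class III PI3-kinase complex makes the lipid that recruits later proteins, and its 6 genes had a median log2 ratio of -0.15 with none past 1.5-fold. Uvrag, the subunit of the endosomal form of the complex, had 29.0 RPKM with vehicle and 21.8 RPKM with clodronate and a log2 ratio of -0.39. The catalytic subunit Pik3c3 had 11.7 and 8.83 RPKM and a log2 ratio of -0.37, so that both differed by a like amount. Becn1, the core subunit Beclin 1, had 26.1 and 22.4 RPKM. The regulatory subunit Pik3r4 had 9.08 and 8.45 RPKM. Atg14, the subunit that directs the complex to autophagy, had 3.999 and 4.08 RPKM, and Ambra1, a regulator that binds Beclin 1, had 11.2 and 11.7 RPKM. For Pik3r4, Atg14 and Ambra1 the interval of the ratio held 1.

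The genes of membrane supply and lipid transfer held the largest difference of the machinery. Vmp1 encodes a membrane protein of the endoplasmic reticulum that moves lipids between membrane leaflets and is required for autophagosomes to form. It had 69.7 RPKM in the vehicle library and 248 RPKM in the clodronate library, a ratio of 3.55 with an interval from 3.39 to 3.72 and a log2 ratio of 1.81. About 2454 and 7158 reads stood behind these values. Vmp1 lay 10.4% from the top of the genes kept in the vehicle library and 3.36% in the clodronate library, and its share of the summed RPKM of the 6 genes was 57.5% and 77.6%.

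The locus of Vmp1 is shared with a microRNA gene, which bears on what its row counts. In RefSeq on GRCm38.p6, Vmp1 lies on chr11:86583858-86683836 on the minus strand, and the hairpin of Mir21a lies inside it, on chr11:86584067-86584158. In GENCODE M21 the hairpin falls in an exon of 1 Vmp1 transcript, 3′ of the coding sequence in the untranslated region. The deposited tables have 0 rows named Mir21 or Mir21a, and in the coordinates of the files, for which the submitters' processing notes name mm9, the Vmp1 row spans chr11:86397366-86497324. Reads from the primary transcript of the microRNA and from Vmp1 mRNA cannot be told apart in this row, and the mature microRNA was not measured. The mature sequences from RefSeq on GRCm38.p6 are shown because they mark the stretch of this row that is processed into another RNA, with the seed (bases 2 to 8) in capitals:
mmu-miR-21a-5p (chr11:86584120-86584141, minus strand): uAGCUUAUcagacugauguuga
mmu-miR-21a-3p (chr11:86584082-86584103, minus strand): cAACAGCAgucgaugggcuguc

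The other genes of this group differed in direction between paralogs. Atg2a and Atg2b encode lipid transfer proteins that bridge the endoplasmic reticulum and the growing membrane. Atg2a had 13.6 RPKM with vehicle and 27.5 RPKM with clodronate, with a log2 ratio of 0.97 that just missed 2-fold on the scale with a pseudocount, and after a correction for GC content and transcript length its log2 ratio was 0.55. Atg2b had 7.82 and 4.70 RPKM and a log2 ratio of -0.63. The level of Atg2a was thus 1.73 times that of Atg2b in the vehicle library and 5.85 times in the clodronate library.

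The WIPI proteins bind the lipid made by the PI3-kinase complex. Wipi2, which recruits the conjugation machinery, had 7.20 RPKM with vehicle and 14.0 RPKM with clodronate, a log2 ratio of 0.87. Wipi1 had 6.56 and 5.23 RPKM, with an interval of the ratio from 0.619 to 1.02 that held 1. The level of Wipi2 was 1.10 times that of Wipi1 in the vehicle library and 2.67 times in the clodronate library. Atg9a, the membrane protein of the vesicles that seed the autophagosome, had 16.3 and 20.2 RPKM, with a log2 ratio of 0.29 that came to 0.05 once GC content and length were corrected for.

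**Figure D3:**
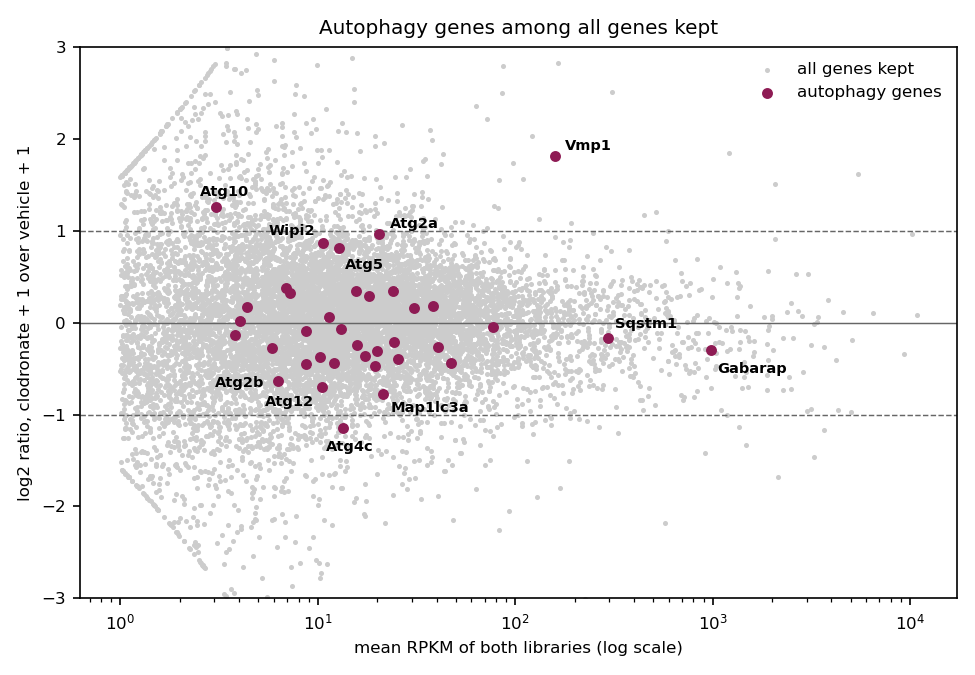
Log2 ratio (clodronate + 1 over vehicle + 1, in RPKM) against mean RPKM of both libraries on a log axis, with all 10982 genes kept in grey, the 37 autophagy genes in purple and dashed lines at 2-fold; 78 genes lie beyond a log2 ratio of 3 in either direction and are not drawn. Most autophagy genes sit inside the grey cloud, with Vmp1 and Atg10 above the upper dashed line and Atg4c below the lower.

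Of the 7 genes of the conjugation systems, 6 were higher in the clodronate library and Atg12 was lower, beside 51.6% of all genes kept that were higher. Their median log2 ratio was 0.35, and 0.25 once GC content and length were corrected for. Atg10, the enzyme that passes ATG12 on to ATG5, had 1.39 RPKM with vehicle and 4.74 RPKM with clodronate and a log2 ratio of 1.26. It rested on about 26 and 73 reads, the fewest of any of the 37 genes, and the interval of its ratio of 3.40 ran from 2.16 to 5.57. Atg5, the acceptor of ATG12, had 9.02 and 16.5 RPKM and a log2 ratio of 0.81. Atg12 itself, the ubiquitin-like protein of this system, had 13.2 and 7.73 RPKM and a log2 ratio of -0.70. Atg12 thus stood at 1.46 times the level of Atg5 in the vehicle library, and Atg5 at 2.14 times the level of Atg12 in the clodronate library.

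The other conjugation genes differed less. Atg7, the activating enzyme shared by both systems, had 29.0 RPKM with vehicle and 32.6 RPKM with clodronate, and Atg3, which transfers LC3 to lipid, had 21.1 and 27.0 RPKM. Atg16l1, which places the conjugate on the membrane, had 13.7 and 17.7 RPKM, and its paralog Atg16l2 had 5.88 and 7.93 RPKM. All 4 lay within 1.5-fold.

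The promoters of the machinery were searched for CACGTG, the core of the sites of the MiT/TFE transcription factors that act on autophagy and lysosome genes. RefSeq promoter windows on GRCm38.p6, from 250 bases before to 50 after a start site, were found for 31 of the 37 genes. The motif, which reads the same on both strands, stood in a window of 4 of the 31, or 12.9%, against 12.0% of the 8366 kept genes with a window and 8.09% of all 27025 genes. The longer TCACGTGA, which contains it, was found in 1 of the 31, or 3.23%, against 2.27% of the kept genes, and the same letters with a further G before and C after them were found in 0 of the 31, against 0.849%. The share among autophagy genes was near that of other genes. The windows with CACGTG are shown as 26 bases with the motif in capitals, so that each match can be located. A match is a sequence and not a measured site:
Atg3 (chr16:45158725-45158750, plus strand, motif from 94 bases before the start): ctccttttgtCACGTGtcctgggaga
Atg3 (chr16:45158748-45158773, plus strand, motif from 71 bases before the start): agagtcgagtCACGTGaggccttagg
Atg5 (chr10:44268315-44268340, plus strand, motif from 14 bases before the start): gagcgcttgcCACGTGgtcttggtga
Atg7 (chr6:114670954-114670979, plus strand, motif from 132 bases before the start): tattggtggtCACGTGtgcagtaagt
Atg14 (chr14:47568420-47568445, minus strand, motif from 1 base before the start): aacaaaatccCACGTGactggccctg

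The log2 ratios of these 4 genes were 0.34 for Atg3, 0.81 for Atg5, 0.16 for Atg7 and 0.02 for Atg14, the last with an interval that held 1. Of the factors, Tfe3 had the highest level, with 64.7 RPKM with vehicle and 75.8 RPKM with clodronate. Mitf had 26.8 and 30.9 RPKM. Tfeb had 5.91 and 11.0 RPKM and a log2 ratio of 0.79, the largest of the 6 transcription factors listed. A link between the motif, the factors and these ratios was not tested.

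The ATG4 proteases trim LC3 and GABARAP proteins before they are conjugated and release them again afterwards. Atg4c was the only one past 2-fold, with 18.8 RPKM with vehicle and 7.95 RPKM with clodronate, 2.36-fold lower, with an interval from 2.03 to 2.73, and a log2 ratio of -1.14. It had the highest level of the 4 proteases in the vehicle library, 43.4% of their sum, and 26.7% of their sum in the clodronate library. Among the genes kept it stood 34.5% from the top in the vehicle library and 60.2% from the top in the clodronate library. Atg4b, the protease with the broadest activity, had 14.1 and 10.1 RPKM and was the highest in the clodronate library. Atg4d had 6.33 and 8.18 RPKM and was the only one higher in the clodronate library. Atg4a had 4.01 and 3.58 RPKM, with an interval of the ratio from 0.661 to 1.20 that held 1.

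The LC3 and GABARAP proteins are the ubiquitin-like proteins that coat the autophagosome. Gabarap had by far the highest level of the machinery, with 1087 RPKM in the vehicle library and 884 RPKM in the clodronate library, at rank 89 and 103 of the 10982 genes kept. It made up 84.7% and 83.7% of the summed RPKM of the 5 genes and stood at 13.9 and 11.6 times the level of Map1lc3b. The family was thus dominated by the same gene in both libraries, and the log2 ratio of Gabarap was -0.30.

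Map1lc3b, the LC3 form most used as a marker of autophagosomes, had 78.5 RPKM with vehicle and 76.1 RPKM with clodronate, and the interval of its ratio, from 0.914 to 1.03, held 1. Map1lc3a had 27.2 and 15.5 RPKM and a log2 ratio of -0.77, the largest difference of the family. Gabarapl2 had 54.7 and 40.2 RPKM, and Gabarapl1 had 35.9 and 40.8 RPKM. Gabarapl2 therefore stood above Gabarapl1 in the vehicle library and level with it in the clodronate library.

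The cargo receptors link ubiquitin-marked or other cargo to LC3 and GABARAP proteins. Sqstm1, the receptor p62, had 313 RPKM with vehicle and 279 RPKM with clodronate, a log2 ratio of -0.17, and made up 77.6% and 78.9% of the summed RPKM of the 5 receptors. It lay 2.60% and 3.02% from the top of the genes kept. Nbr1, a receptor built like p62, had 19.7 and 15.1 RPKM and the largest difference of the group, with a log2 ratio of -0.36. Tax1bp1 had 44.5 and 37.0 RPKM and Calcoco1 had 22.04 and 17.7 RPKM. Optn, the receptor optineurin, had 4.07 and 4.71 RPKM, with an interval of the ratio from 0.890 to 1.51 that held 1. None of the 5 passed 1.5-fold, and 4 of the 5 were lower in the clodronate library, beside 48.4% of all genes kept.

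**Figure D4:**
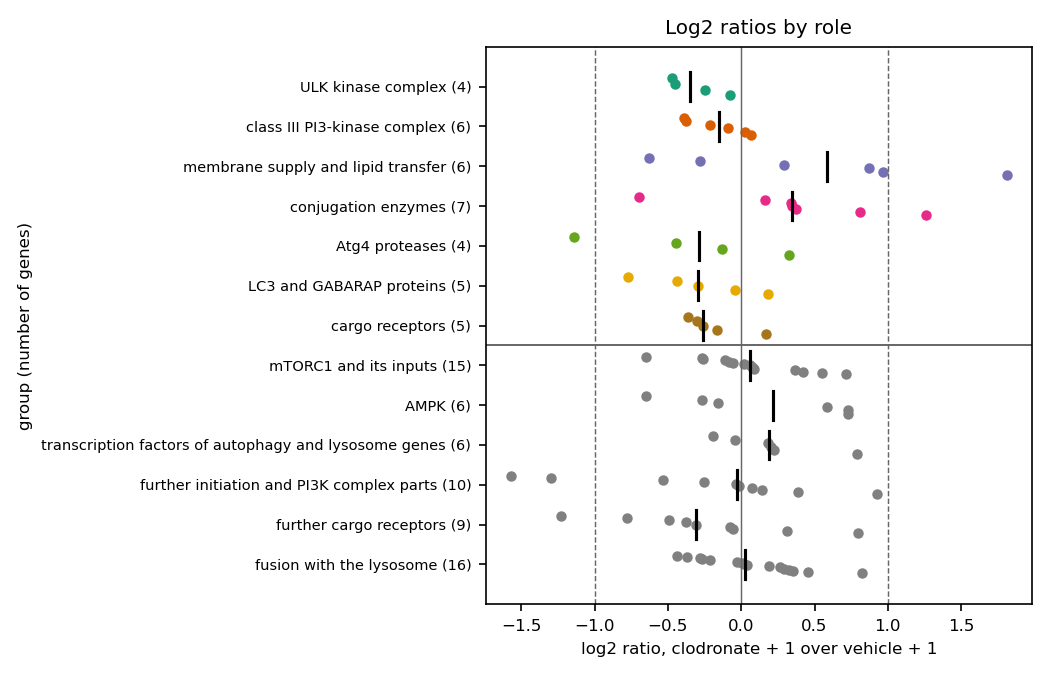
Log2 ratio of each gene (points) and median (black bars) by role, with the 37 autophagy genes in colour above the line and 62 other genes of the pathway in grey below it, and dashed lines at 2-fold. Medians of the membrane supply and conjugation groups lie above 0 at 0.58 and 0.35 (0.30 and 0.25 once GC content and length were corrected for), and those of the other groups of the machinery lie below 0.

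A list of 66 further genes of the pathway was set beside the machinery, and 62 of them were kept. At 2-fold 0 were higher and 3 were lower in the clodronate library, together 4.84%, against 13.7% of all genes kept. The 3 were Atg101, Bcl2 and Retreg1, and the median log2 ratio of the 62 genes was 0.012. The group of further initiation and PI3-kinase parts held the largest difference. Atg101, which stabilises ATG13 in the ULK complex, had 21.6 RPKM with vehicle and 6.58 RPKM with clodronate and a log2 ratio of -1.57. Bcl2, which binds and holds back Beclin 1, had 7.502 and 2.45 RPKM and a log2 ratio of -1.30. Retreg1, a receptor for the breakdown of the endoplasmic reticulum listed under its older symbol Fam134b, had 19.7 and 7.81 RPKM and a log2 ratio of -1.23.

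The genes that control the pathway or complete it held 0 past 2-fold among those kept. Of the 15 kept genes of mTORC1, the kinase complex that restrains autophagy, and of its inputs, 9 were higher and 6 lower in the clodronate library with 0 past 2-fold. Mtor itself had 8.51 RPKM with vehicle and 6.93 RPKM with clodronate. AMPK promotes autophagy when energy is low. Of the 6 kept genes of AMPK and its upstream kinase Stk11, 3 were higher and 3 lower in the clodronate library. Prkab1, Prkag2 and Stk11 were past 1.5-fold higher and Prkab2 past 1.5-fold lower. Of the catalytic subunits, Prkaa1 had 15.5 RPKM with vehicle and 12.7 RPKM with clodronate, and Prkaa2 was listed at 0 in both libraries. The 16 genes of fusion with the lysosome had a median log2 ratio of 0.029 and a range from -0.44 to 0.82, with 10 higher and 6 lower. The lysosomal membrane protein Lamp1 had 1011 and 1016 RPKM, the small GTPase Rab7 had 633 and 640 RPKM and Lamp2 had 588 and 484 RPKM.

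Some rows of the machinery share sequence or position with other genes, and how reads that match several genes were assigned is not given in the sources used here. Of the 37 genes, 5 share a locus in the files with another row. Becn1 shares one with Cntd1, which had 19.5 and 9.70 RPKM, and Atg4d with Kri1, which had 6.76 and 9.61 RPKM. Atg16l1 shares one with Scarna6, which had 0 RPKM with vehicle and 15.3 RPKM with clodronate. For Atg5 it is Mir1929, at 0 in both libraries, and for Gabarapl1 it is 1700101I11Rik, at 0 and 0.590 RPKM. Among 50-base words of GENCODE M21 transcripts, on either strand, 63.6% of those of Atg4a also occur in other genes, a pseudogene of Atg4a among them. The share was 47.8% for Atg9a, 45.7% for Becn1, 18.6% for Gabarapl1, 18.2% for Atg4d, 17.0% for Gabarapl2, 13.8% for Map1lc3b and 12.0% for Rb1cc1. The values of these genes are therefore less certain. The share was 2.81% for Vmp1, 2.12% for Atg4c and 0.130% for Atg10. The shared words of Vmp1 occur in Mir21a and Gm1969, and the limit given above for its row holds whatever this share.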

How the data were processed

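The authors deposited 1 table per library with RPKM values for 23170 loci, and the submitters' processing notes name CASAVA 1.8.2, TopHat2 2.0.9, Bowtie 0.12.9, Cufflinks 2.2.1, Cuffdiff and the build mm9. The accompanying paper describes another experiment. A symbol had become a number in 26 loci and the accession was used, and rows of the same symbol were summed. Groups came from the labels. Genes were kept from a mean of 1 RPKM, a pseudocount of 1 was added, and genes at least 2-fold apart were counted. No test was possible with 1 library per condition.

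RPKM was divided by the step of 1 read, 0.0735 (vehicle) and 0.0895 (clodronate) RPKM times the length in kilobases, after 200 nt were subtracted from GENCODE M21 transcript lengths. Steps and subtracted length were chosen for the largest share of whole reads. The procedures were tested on simulated data. All members and lists were chosen with earlier results of these data known. Every member is named, and other genes of the pathway could be named when past 2-fold or among the 3 highest of a group. Mtor, Tfeb, Prkaa1, Prkaa2, Prkab2, Prkag2 and Nrbf2 were named after their values were seen. Python 3.11.15, numpy 2.4.6, pandas 2.3.3, scipy 1.17.1 and matplotlib 3.10.9 were used.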

Additional observations from a re-analysis of the deposited data

How the results depend on the processing

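No paired analysis was possible because there is just 1 library of either kind. The median log2 ratio of the 37 genes, -0.13, was -0.16 with a pseudocount of 0.1. Under it Atg2a made 3 genes at least 2-fold higher, and the counts over all genes were 1032 higher and 1036 lower, together 18.8%. The median was -0.21 over the 33 genes whose mean reached 5 RPKM, -0.15 after centring and -0.18 after upper quartile scaling. It was -0.16 once GC content and length were corrected for. That correction left Vmp1, Atg10 and Atg4c past 2-fold with log2 ratios of 1.97, 1.60 and -1.03, beside 12.7% of all genes. With a mean of 5 RPKM as the filter, 1 of the 33 autophagy genes was at least 2-fold higher and 1 lower, since Atg10 did not reach that mean. The counts over all genes were then 346 higher and 356 lower of 7957, together 8.82%. They stood in place of 763 and 744 of 10982, together 13.7%. At 1.5-fold the counts were 5 higher and 4 lower for the autophagy genes, 1828 and 1789 for all genes, and 8 and 6 for the other genes of the pathway. At 3-fold they were 1 and 0, 314 and 255, and 0 and 0. With the correction for GC content and length, 1 other gene of the pathway, Nrbf2, was at least 2-fold higher in place of 0. With a mean of 100 RPKM as the filter, chosen after seeing the data, 3 autophagy genes were left with a median of -0.17, 1 of them higher and 0 lower. The former, Vmp1, reaches that mean only through the clodronate library, so that count follows from the filter. Of the 823 genes left in all, 38 were higher and 34 lower, together 8.75%, and of the other genes of the pathway 0 and 0. A stricter filter or threshold leaves fewer genes that can pass. With no filter on low values and with the highest row of a symbol, the values of the autophagy genes cannot change. Under upper quartile scaling Atg14 changed sign, and under the correction for GC content and length Atg4a, Atg14 and Ambra1 did, all with log2 ratios of at most 0.13 in size before it, and the cause was not tested. The same correction brought the log2 ratio of Atg4d from 0.32 to 0.13, of Gabarapl2 from -0.44 to -0.26 and of Calcoco1 from -0.30 to -0.47. Depth limits Atg10 most, and the spread between mice was not measured.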
